A study of Mus musculus with 6 samples.

Results

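The genes described here are Nfe2l2, which encodes the transcription factor NRF2, Keap1, which encodes its cytosolic repressor, and 8 genes that NRF2 is known to switch on: Nqo1, Hmox1, Gclc, Gclm, Txnrd1, Srxn1, Gsr and G6pdx. These 10 of the 22375 rows of the deposited table were chosen by gene symbol. RNA-seq was performed on the mouse myoblast line C2C12, which is derived from muscle precursor cells. The CON group held 3 libraries from cells without stretching, and the 4H group held 3 libraries from cells under cyclic loading at 15% elongation for 4 h. The 4H libraries titled 4H1, 4H3 and 4H4 are called replicates 1, 2 and 3, the numbers in their labels. Both groups were the same purchased cell line with no knockdown, and the labels call the libraries replicates without saying whether they came from separate cultures, so p values measure only the spread between these libraries. Values are FPKM, read fragments scaled to transcript length and library size, which allow levels of different genes to be compared per length.

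NRF2 is a basic leucine zipper protein that KEAP1 holds in the cytosol and hands to a ubiquitin ligase for degradation. When reactive oxygen species or electrophiles modify cysteines of KEAP1, NRF2 escapes, pairs with a small MAF protein and binds antioxidant response elements (AREs) near its target genes. Its targets make and recycle glutathione, reduce thioredoxin and peroxiredoxins, break down heme, reduce quinones and supply NADPH. Contracting muscle produces reactive oxygen species, and this pathway is one of the systems that keep muscle cells in redox balance. NRF2 is controlled largely at the level of the protein, which was not measured here.

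After 4 h of stretching most of these 10 mRNAs were lower. All 10 genes passed the filter on low values, and 8 of them fell in the 4H group, 0 rose and 2, Nqo1 and G6pdx, did not pass the test (limma on log2(FPKM + 0.5), adjusted p of at most 0.05 over all 11593 genes tested). Among all genes tested, 46.7% passed in either direction, 24.1% were lower and 22.6% were higher in the 4H group. These shares cover genes of all levels and were not matched to the 10, which were of upper levels. Between 61.5% (Keap1) and 98.0% (Txnrd1) of genes tested had a lower mean FPKM. The groups did not overlap in 9 of the 10 genes, all with lower values in the 4H group. Of all genes tested, 56.7% had groups that did not overlap, 29.2% with the 4H group lower and 27.5% with it higher. The median log2 change (4H against CON on that scale) of the 10 genes was -0.31, and that of all genes tested was -0.01. None of the 10 was differentially expressed, which needed an absolute log2 change of at least 1 besides the adjusted p and held for 3.88% of all genes tested (1.28% lower, 2.61% higher). The largest fall was that of Hmox1, to 0.511 ± 0.05 times the CON mean, followed by Gclc at 0.6301 ± 0.02 times and Nfe2l2 at 0.659 ± 0.01 times (SD, n = 3 libraries).

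**Figure D1:**
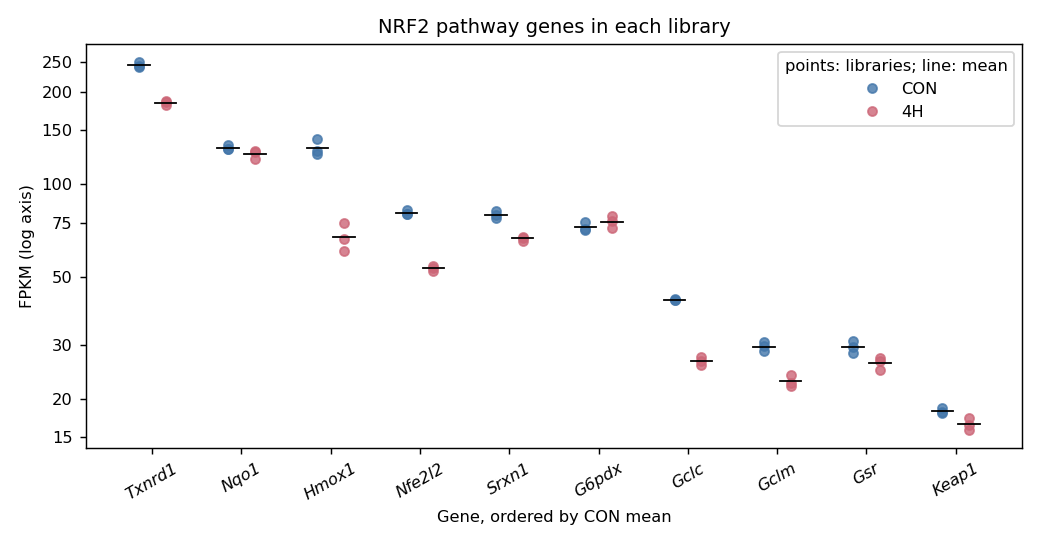
FPKM of the 10 genes (log axis) in each of the 3 CON and 3 4H libraries, with a line at each group mean, ordered by the CON mean. All 4H points lie below all CON points in every gene except G6pdx, and the gap is widest for Hmox1.

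The promoter sequences are shown first, because most of these genes fell together and are known to share the ARE. RefSeq promoter windows of 300 bases, 250 before and 50 from the transcription start on build GRCm38.p6, were matched by symbol for 7 of the 10 genes in 9 windows, 3 of them for Txnrd1. Hmox1, Gclc and Gsr had no entry. Each window was searched on both strands for the core of the ARE in 2 forms, TGACNNNGC and TGAGNNNGC, and for the AP-1 heptamer TGACTCA, which lies within an ARE core wherever the heptamer is followed by GC. A core of either form was found in 5 of the 9 windows, those of Nfe2l2, Srxn1, Gclm, G6pdx and 1 of Txnrd1, and in 27.8% of all 32851 windows of the table. The following stretches show cores in capitals with up to 16 bases on each side, 5′ to 3′ on the strand of the gene, and a capital run that starts with GC is a core on the opposite strand.
Nfe2l2, chr2:75704879-75704913, minus strand: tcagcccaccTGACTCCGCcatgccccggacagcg
Gclm, chr3:122245407-122245447, plus strand: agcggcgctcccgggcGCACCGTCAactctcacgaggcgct
Txnrd1, chr10:82859098-82859138, plus strand: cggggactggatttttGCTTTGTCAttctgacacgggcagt
Srxn1, chr2:152105350-152105390, plus strand: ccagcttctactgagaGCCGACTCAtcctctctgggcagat
Srxn1, chr2:152105463-152105503, plus strand: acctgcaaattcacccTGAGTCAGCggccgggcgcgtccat
G6pdx, chrX:74428913-74428953, minus strand: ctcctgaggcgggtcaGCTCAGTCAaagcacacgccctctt
With the transcription start counted as base 1 and the base before it as -1, these cores begin at -240 in Nfe2l2, -134 in Gclm, -92 in Txnrd1, -158 and -45 in Srxn1 and -57 in G6pdx. Srxn1 held the most matches, a further core at 29 and AP-1 heptamers at -102 and -45. Its core at -45 contains an AP-1 heptamer, so the same letters answer both searches. Across all windows of the table, 12.4% held TGACNNNGC, 17.6% held TGAGNNNGC and 5.202% held the AP-1 heptamer. The windows of Nqo1 and Keap1 and the other windows of Txnrd1 held none of these letters. Sequence more than 250 bases before the start was not searched, so this does not show that a gene lacks an ARE. The genes with a core included both genes that fell and G6pdx, whose groups overlapped. A match is a string of letters in the reference genome, and binding was not measured.

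**Figure D2:**
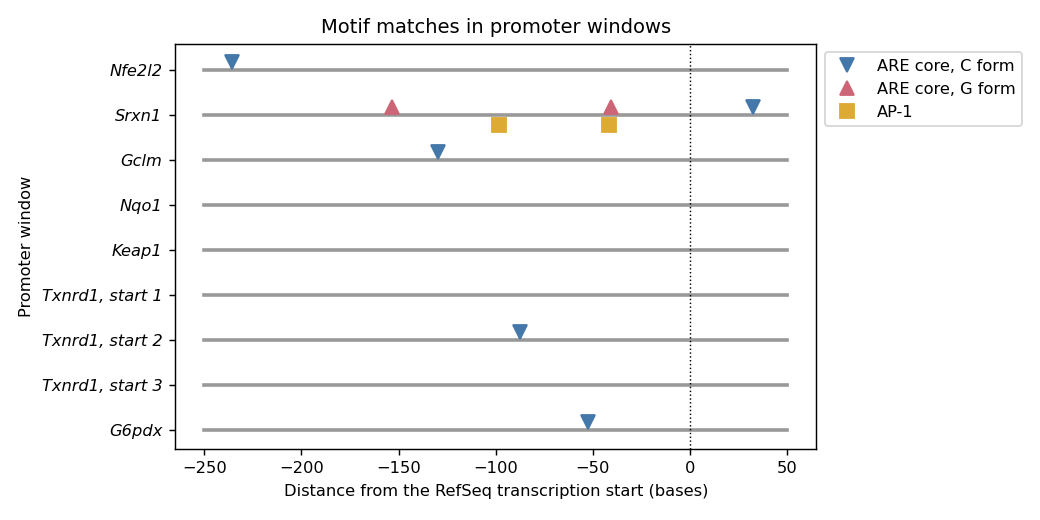
Positions of ARE cores (C form with TGAC, G form with TGAG) and AP-1 heptamers in the 9 RefSeq promoter windows, in bases from the transcription start. Srxn1 has 5 matches, 4 windows have 1 and 4 have none.

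Nfe2l2 (ENSMUSG00000015839, chromosome 2, 75675513 to 75704641, minus strand, build GRCm38 as for all genes), the gene of NRF2, was at 80.2, 82.6 and 79.9 FPKM in CON replicates 1, 2 and 3. The 4H libraries held 53.5, 52.2 and 54.3 FPKM of it. The highest 4H value was far below the lowest CON value, and the spread within each group was small. The means were 80.9 ± 1.49 and 53.3 ± 1.03 FPKM (SD, n = 3), a log2 change of -0.60 with a standard error (SE) of 0.03 and a 95% interval of -0.67 to -0.52 (limma, adjusted p = 2.75e-06). Of all genes tested, 4.13% had a lower log2 change than Nfe2l2.

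Keap1 (ENSMUSG00000003308, chromosome 9, 21229730 to 21239361, minus strand), the repressor, was at 17.9, 18.1 and 18.7 FPKM in CON, against 15.8, 17.3 and 16.4 FPKM in 4H. The groups did not overlap, but the gap between them was narrow. Its log2 change was -0.14 (SE 0.05, limma, adjusted p = 0.0459), close to the threshold, and over 17 alternative settings the adjusted p ranged from 0.0269 to 0.136 and passed in 8. Leaving out 1 CON library lost the call of Keap1 each time (adjusted p = 0.0744 for replicate 1, 0.0878 for replicate 2 and 0.131 for replicate 3, limma), as did leaving out 4H replicate 1 (0.136) and 4H replicate 3 (0.104). Keap1 overlaps exons of Gm16754 on the other strand. The ratio of Nfe2l2 to Keap1 was 4.48, 4.56 and 4.28 in CON and 3.38, 3.01 and 3.31 in 4H, lower in every 4H library. Its log2 value differed by -0.46 (SE 0.06, two-sided exact permutation test, p = 0.1, the smallest that 3 against 3 allow).

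Glutathione is made from glutamate, cysteine and glycine, and the first step is taken by glutamate-cysteine ligase, an enzyme of a catalytic subunit, GCLC, and a modifier subunit, GCLM. Gclc (ENSMUSG00000032350, chromosome 9, 77754535 to 77794485, plus strand) was at 41.9, 42.2 and 42.1 FPKM in CON, against 25.7, 27.3 and 26.5 FPKM in 4H, tight and separate groups. The log2 change of Gclc was -0.66 (SE 0.04, 95% interval -0.74 to -0.57, limma, adjusted p = 3.81e-06). Gclm (ENSMUSG00000028124, chromosome 3, 122245557 to 122270732, plus strand) was at 29.6, 30.5 and 28.5 FPKM in CON, against 22.01, 22.4 and 23.8 FPKM in 4H. It fell as well, without overlap, with a log2 change of -0.37 (SE 0.05, limma, adjusted p = 0.000336). Exons of Gm6061 on its strand and of Gm17494 on the other strand overlap Gclm.

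The ratio of the subunits did not overlap between the groups. Gclm stood at 0.706, 0.722 and 0.678 times the FPKM of Gclc in CON and at 0.857, 0.821 and 0.898 times in 4H, higher in every 4H library. The log2 ratio differed by 0.29 (SE 0.05, two-sided exact permutation test, p = 0.1). Gsr (ENSMUSG00000031584, chromosome 8, 33652523 to 33698163, plus strand), whose enzyme returns oxidized glutathione to its reduced form with NADPH, was at 28.3, 30.7 and 29.5 FPKM in CON, against 27.04, 26.6 and 24.7 FPKM in 4H. All 4H values were lower, the nearest by a small margin. Its log2 change was -0.17 (SE 0.05, limma, adjusted p = 0.022). It did not pass without CON replicate 2 (adjusted p = 0.0723), CON replicate 3 (0.0592) or 4H replicate 3 (0.0678), nor with libraries rescaled to TPM (0.0581), and the range over the alternatives was 0.0191 to 0.0723.

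The thioredoxin system reduces disulfides in parallel to glutathione. Txnrd1 (ENSMUSG00000020250, chromosome 10, 82833951 to 82897712, plus strand), the cytosolic thioredoxin reductase, had the highest level of the 10 genes, 241.9, 250.1 and 243.3 FPKM in CON and 186.5, 185.6 and 181.8 FPKM in 4H. The groups were far apart relative to their spread, and the log2 change was -0.41 (SE 0.03, 95% interval -0.47 to -0.35, limma, adjusted p = 8.24e-06).

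Its paralogs were much lower in level. Txnrd2, the mitochondrial thioredoxin reductase, was at 8.303 ± 0.40 and 7.15 ± 0.69 FPKM (SD, n = 3) with a log2 change of -0.20 that did not pass (limma, adjusted p = 0.0669), except without 4H replicate 3 (0.03). Txnrd3, a reductase with an added glutaredoxin domain, was at 5.11 ± 0.62 and 5.27 ± 0.54 FPKM and did not pass either (log2 change 0.04, limma, adjusted p = 0.772). Relative to Txnrd3, Txnrd1 was lower in every 4H library, with ratios of 52.5, 50.8 and 41.9 in CON and 31.8, 38.5 and 35.5 in 4H (log2 difference -0.45, SE 0.12, two-sided exact permutation test, p = 0.1). The ratio to Txnrd2 was 29.4, 28.6 and 30.6 against 28.8, 25.99 and 23.2, and 4H replicate 1 lay just above CON replicate 2, although on the log2(FPKM + 0.5) scale the groups did not overlap (log2 difference -0.20, SE 0.09, two-sided exact permutation test, p = 0.1).

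Srxn1 (ENSMUSG00000032802, chromosome 2, 152105516 to 152111376, plus strand) encodes sulfiredoxin, which repairs peroxiredoxins that peroxide has overoxidized. It was at 81.8, 77.9 and 79.4 FPKM in CON, against 67.4, 65.4 and 67.03 FPKM in 4H, again without overlap. The log2 change was -0.26 (SE 0.03, limma, adjusted p = 0.000325). Prdx1, the gene of a cytosolic peroxiredoxin that sulfiredoxin acts on, went the other way, from 200.2 ± 5.11 to 214.5 ± 6.62 FPKM (log2 change 0.10, limma, adjusted p = 0.0375), a rise that lost its call in 6 of 17 alternatives, among them those without CON replicate 1 (0.116), CON replicate 3 (0.0687), 4H replicate 2 (0.119) and 4H replicate 3 (0.0563). The ratio of Srxn1 to Prdx1 was 0.421, 0.382 and 0.393 in CON and 0.321, 0.295 and 0.317 in 4H, lower in each 4H library (log2 difference -0.36, SE 0.06, two-sided exact permutation test, p = 0.1).

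Hmox1 (ENSMUSG00000005413, chromosome 8, 75093621 to 75100589, plus strand) encodes heme oxygenase 1, the inducible enzyme that opens the heme ring and releases iron, carbon monoxide and biliverdin. It was at 140.2, 125.2 and 128.5 FPKM in CON, against 74.6, 66.3 and 60.4 FPKM in 4H. The spread was wider than for the other genes in both groups, 6.03% of the mean in CON and 10.6% in 4H, but the gap between the groups was wider still. The log2 change was -0.97 (SE 0.08, 95% interval -1.14 to -0.79, limma, adjusted p = 2.37e-05), and 1.45% of all genes tested had a lower one. It passed a log2 change of -1 without CON replicate 2, by less than 0.01, and without 4H replicate 1 (-1.05), so the number of differentially expressed genes among the 10 was 1 in those settings and 0 in the other 15.

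Hmox2, the constitutive heme oxygenase, was at 23.6, 22.2 and 22.2 FPKM in CON, against 22.01, 24.6 and 22.9 FPKM in 4H, and the groups overlapped (log2 change 0.03, 95% interval -0.09 to 0.15, limma, adjusted p = 0.69). The ratio of Hmox1 to Hmox2 was 5.93, 5.63 and 5.78 in CON and 3.39, 2.699 and 2.64 in 4H. This was the widest of the 8 ratio differences, -0.995 on the log2 scale (SE 0.12, two-sided exact permutation test, p = 0.1).

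Nqo1 (ENSMUSG00000003849, chromosome 8, 107388225 to 107403206, minus strand), a quinone reductase that is often used as a readout of NRF2, was at 130.3, 130.4 and 134.3 FPKM in CON, against 128.7, 127.4 and 121.2 FPKM in 4H. The 4H values were all lower, the nearest by a small margin. The log2 change of -0.07 did not pass (SE 0.03, 95% interval -0.14 to 0.01, limma, adjusted p = 0.129), nor did it in any of the 17 alternatives, with adjusted p from 0.101 to 0.499.

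Its paralog Nqo2, a quinone reductase that does not use NADPH, fell. It was at 30.7 ± 2.77 and 19.9 ± 0.67 FPKM (SD, n = 3, log2 change -0.61, SE 0.07, limma, adjusted p = 0.000167). The ratio of Nqo1 to Nqo2 was 4.09, 3.99 and 4.88 in CON and 6.696, 6.196 and 6.09 in 4H, higher in every 4H library (log2 difference 0.54, SE 0.10, two-sided exact permutation test, p = 0.1).

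G6pdx (ENSMUSG00000031400, chromosome X, 74409483 to 74429194, minus strand) encodes glucose-6-phosphate dehydrogenase, the entry enzyme of the pentose phosphate pathway and a source of the NADPH that GSR and TXNRD1 use. It was at 70.97, 75.5 and 71.5 FPKM in CON, against 78.7, 75.7 and 71.8 FPKM in 4H. The groups overlapped, and G6pdx was the only gene of the 10 with a 4H mean above the CON mean. The log2 change was 0.05 (SE 0.04, 95% interval -0.05 to 0.15, limma, adjusted p = 0.355), and the two-sided exact permutation test gave p = 0.2. G6pdx shares 1.94% of its stretches of 75 bases with G6pd2, which was listed at 0 in all 6 libraries, and the other 9 genes share none with another gene. On the other strand it overlaps exons of Ikbkg, which was at 33.2, 35.6 and 35.6 FPKM in CON and 29.5, 40.7 and 28.3 FPKM in 4H.

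**Figure D3:**
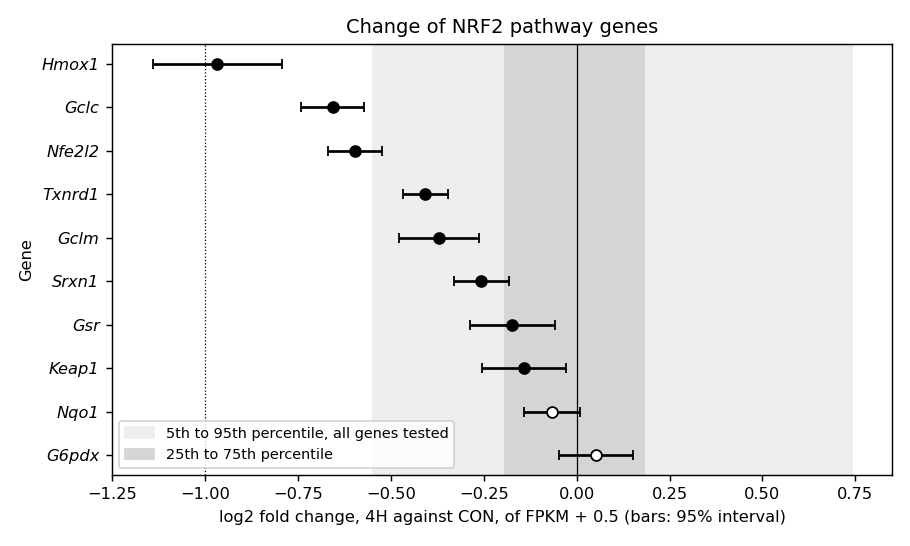
Log2 change of each gene in the 4H group against CON on the log2(FPKM + 0.5) scale, with 95% intervals, filled points for an adjusted p of at most 0.05, a dotted line at -1 and gray bands for percentiles of all genes tested. Hmox1, Gclc and Nfe2l2 lie below the 5th percentile of -0.55, and Gsr, Keap1, Nqo1 and G6pdx lie between the 25th and the 75th, -0.19 and 0.18.

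The order of levels changed for 5 of the 10 genes. In both groups Txnrd1 was highest, Nqo1 second and Keap1 lowest. In CON the neighbors Nqo1 and Hmox1, Nfe2l2 and Srxn1, and Gclm and Gsr overlapped, and all other neighbors were apart in every library. In 4H the overlapping neighbors were G6pdx and Hmox1, Hmox1 and Srxn1, and Gclc and Gsr. G6pdx moved from place 6 in CON to place 3 in 4H, Nfe2l2 from 4 to 6 and Hmox1 from 3 to 4, and Gclm and Gsr exchanged places 8 and 9. Within a group the SD of a gene was between 0.321% and 10.6% of its mean.

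**Figure D4:**
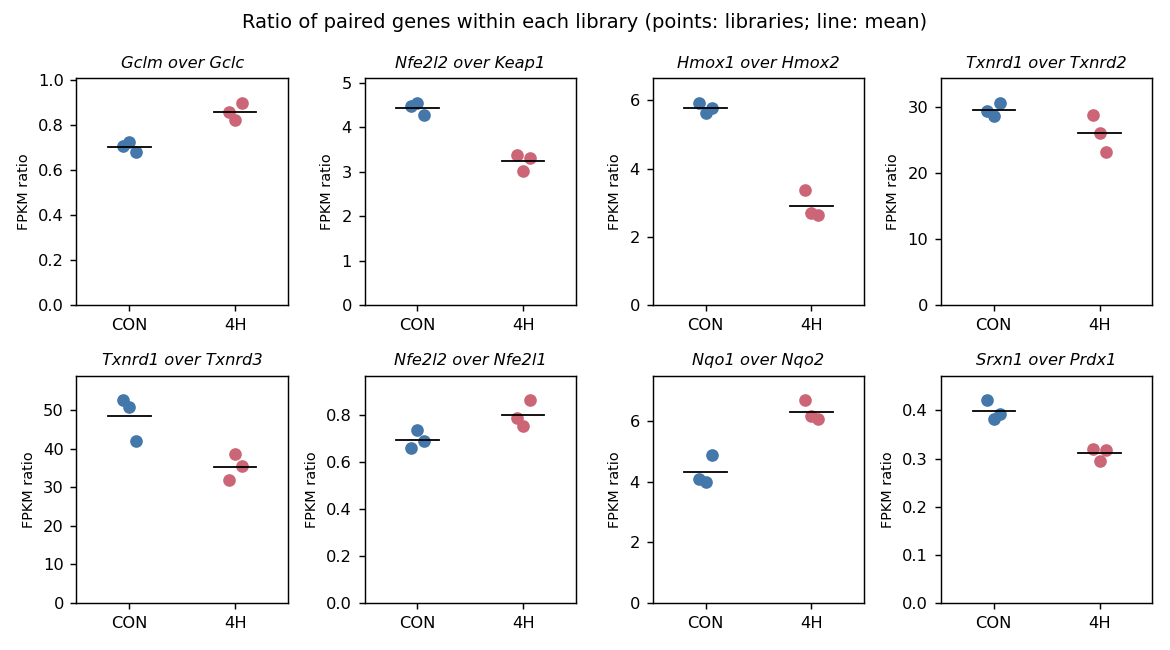
Ratio of the FPKM of paired genes within each library, with a line at the group mean and each axis starting at 0. The 4H points lie above the CON points for Gclm over Gclc, Nfe2l2 over Nfe2l1 and Nqo1 over Nqo2 and below them in the others, except that 1 4H point of Txnrd1 over Txnrd2 (28.8) lies just above 1 CON point (28.6).

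A further 87 genes of the pathway were read as 7 lists, of which 84 passed the filter. Of these, 37 fell, 19 rose and 28 did not pass, with a median log2 change of -0.11. Over all genes tested the shares were 24.1% lower and 22.6% higher, and the 19 of 84 that rose lie at that background.

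Among the partners and regulators of NRF2, 5 of 12 genes tested fell and 3 rose (median log2 change 0.06). Over all genes tested the shares were 24.1% lower and 22.6% higher, and the rises lie near theirs. The number that rose was 1 when any of CON replicates 1 and 3 and 4H replicates 2 and 3 was left out. Sqstm1, the gene of the autophagy receptor p62, which competes for KEAP1 and is itself a target of NRF2, was at 912.5, 864.96 and 853.5 FPKM in CON, against 341.01, 327.8 and 326.8 FPKM in 4H. Its log2 change of -1.40 (SE 0.03, limma, adjusted p = 7.06e-08) was larger than that of any of the 10 genes. Nfe2l1, the paralog NRF1 that drives proteasome genes, fell from 117.05 ± 4.74 to 66.8 ± 3.31 FPKM (log2 change -0.80, limma, adjusted p = 4e-06). The ratio of Nfe2l2 to Nfe2l1 was 0.657, 0.732 and 0.688 in CON and 0.786, 0.752 and 0.8601 in 4H, higher in each 4H library (log2 difference 0.21, SE 0.07, two-sided exact permutation test, p = 0.1). Maff, a small MAF protein, rose from 11.2 ± 0.18 to 21.3 ± 0.26 FPKM (log2 change 0.89, limma, adjusted p = 1.69e-06).

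Of the genes of glutathione supply and use, 5 rose and 4 fell of 13 tested (median log2 change 0.18). Over all genes tested the shares were 22.6% higher and 24.1% lower, and the falls lie near theirs. Slc7a11, the cystine importer that feeds glutathione synthesis, was at 36.9, 34.7 and 33.9 FPKM in CON, against 11.3, 11.7 and 10.3 FPKM in 4H, without overlap. Its log2 change was -1.62 (SE 0.06, limma, adjusted p = 4.03e-07). Chac1, an enzyme that degrades glutathione, fell from 64.9 ± 1.44 to 27.9 ± 4.39 FPKM (log2 change -1.22, limma, adjusted p = 3.28e-05), so a gene of supply and a gene of breakdown were both lower. Slc7a11 and Chac1 are also known targets of ATF4, the factor of the integrated stress response. Ggct, another enzyme of glutathione turnover, rose from 4.11 ± 1.38 to 9.07 ± 1.21 FPKM (log2 change 1.10, SE 0.22, limma, adjusted p = 0.00422). Without CON replicate 2 its log2 change was 0.82, which no longer reached 1, while the call was kept.

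Of the thioredoxins and peroxiredoxins, 6 fell and 2 rose of 12 tested (median log2 change -0.10, range -0.43 to 0.28), against 24.1% lower and 22.6% higher over all genes tested, so the rises do not exceed that background. The number that rose was 1 in 5 of 17 alternatives, among them those without CON replicate 1, CON replicate 3 or 4H replicate 2. The largest changes were falls of Prdx3, the mitochondrial peroxiredoxin (log2 change -0.43, limma, adjusted p = 0.000357), Prdx6 (-0.34, adjusted p = 0.00472) and Prdx4, the peroxiredoxin of the endoplasmic reticulum (-0.29, adjusted p = 0.000128). Of the genes of NADPH supply, 6 of 11 tested fell and 1 rose (median log2 change -0.22), against the same shares over all genes. Rpia, of the pentose phosphate pathway, fell from 8.39 ± 0.54 to 5.05 ± 0.02 FPKM (log2 change -0.68, limma, adjusted p = 9.43e-05). Pgls, the step after G6PDX, had a log2 change of -0.46 (limma, adjusted p = 0.00015), and H6pd, the related dehydrogenase of the endoplasmic reticulum, one of -0.37 (adjusted p = 0.000889). G6pdx, at the head of that pathway, did not pass while Pgls and Rpia fell.

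Heme degradation and iron genes numbered 10, of which 6 fell and 1 rose (median log2 change -0.20), against 24.1% and 22.6% over all genes tested. Slc40a1, the iron exporter ferroportin, was at 1.95, 2.02 and 2.09 FPKM in CON, against 0.5004, 0.538 and 0.522 FPKM in 4H. Its log2 change of -1.30 (SE 0.11, limma, adjusted p = 3.26e-05) depends on the pseudocount at this level, and was -1.77 with 0.1 and -0.99 with 1, where it no longer reached an absolute log2 change of 1. Fth1, the ferritin heavy chain that stores iron, fell from 2196 ± 91.1 to 1609 ± 11.5 FPKM (log2 change -0.45, limma, adjusted p = 1.5e-05). Tfrc, the transferrin receptor that takes iron up, rose from 44.8 ± 0.62 to 66.00 ± 1.06 FPKM (log2 change 0.55, limma, adjusted p = 3.84e-06). The mRNAs of an iron exporter and an iron store were thus lower, and that of an iron importer higher.

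Of the conjugation, carbonyl reduction and export genes, 9 fell and 6 rose of 21 tested (median log2 change -0.17). Over all genes tested the shares were 24.1% lower and 22.6% higher, and the rises lie near theirs. Ugdh, which makes UDP-glucuronic acid, rose from 85.5 ± 3.23 to 155.7 ± 1.24 FPKM (log2 change 0.86, limma, adjusted p = 5.85e-07). Gsta4, a glutathione transferase for lipid peroxidation products, fell from 234.96 ± 5.07 to 149.9 ± 3.31 FPKM (log2 change -0.65, limma, adjusted p = 1.27e-06). Of the superoxide dismutases and catalase, 1 of 5 rose and 1 fell (median log2 change -0.01), close to the shares of 22.6% and 24.1% over all genes tested, so the counts are no result about this list. Sod3, the extracellular superoxide dismutase, had a log2 change of 0.85 (limma, adjusted p = 1.85e-05), and catalase, Cat, one of -0.39 (adjusted p = 0.000362).

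**Figure D5:**
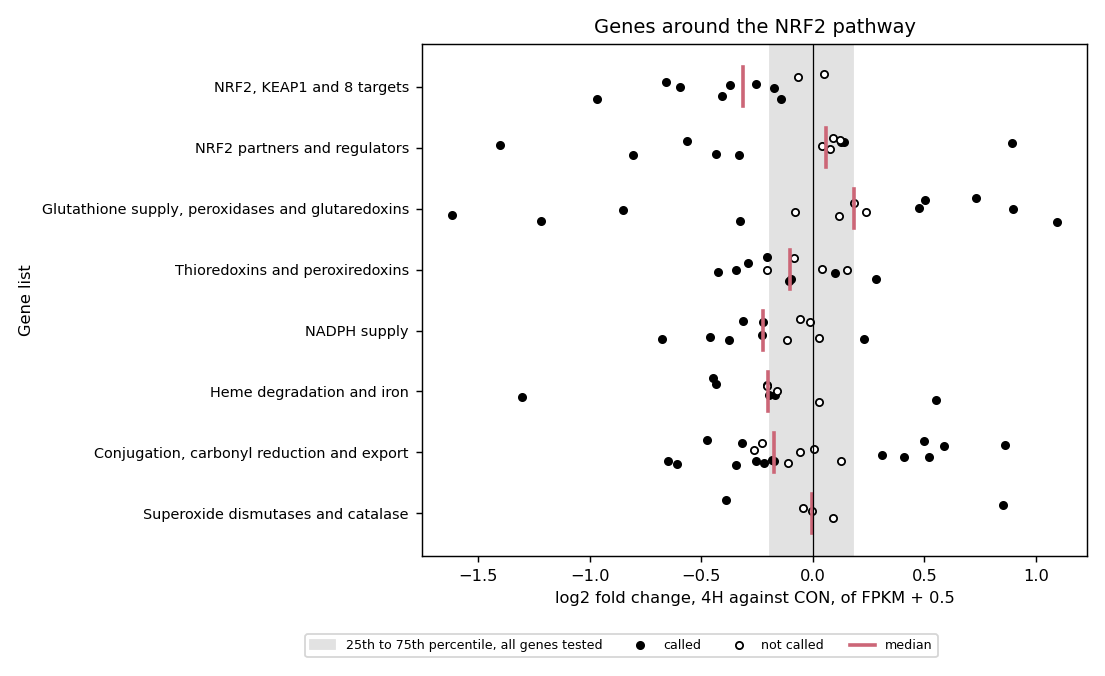
Log2 change of each gene tested in the 4H group against CON, by list, with filled points for an adjusted p of at most 0.05, a line at the median of each list and a gray band from the 25th to the 75th percentile of all genes tested. The median of NRF2, KEAP1 and 8 targets is -0.31, and the glutathione list has genes far out on both sides, from -1.62 to 1.10.

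FPKM summed to between 395790 and 397260 in the CON libraries and between 385146 and 387516 in the 4H libraries, and more rows were above 0 in 4H (14899 to 14972) than in CON (14125 to 14186). Of 8 myoblast markers 7 could be tested, and 6 of them rose and 1 fell, against 22.6% higher and 24.1% lower over all genes tested. The 8 summed to 194.7 to 201.4 FPKM in CON and 284.1 to 298.5 FPKM in 4H. Myod1 had the highest log2 change (1.74, limma, adjusted p = 1.56e-06), and Myf5 was the one that fell (-0.67, limma, adjusted p = 0.000347). Markers of differentiated muscle summed to 0.729 to 1.11 FPKM in CON and 1.25 to 1.81 FPKM in 4H. Only Mymk of that list could be tested, and it rose (log2 change 0.57, limma, adjusted p = 0.0194). Endothelial markers summed to 0.101 to 0.122 FPKM in CON and 0.254 to 0.387 FPKM in 4H, with Emcn at 0 in all 6. Leukocyte markers summed to 6.82 to 8.55 FPKM in CON and 16.6 to 18.6 FPKM in 4H, most of it Cd68, with Ptprc and Adgre1 listed at 0 in all 6 libraries and Csf1r at 0 to 0.0272 and 0.792 to 1.48 FPKM. Adipocyte and fibro-adipogenic markers summed to 247.6 to 313.9 FPKM in CON and 176.1 to 207.8 FPKM in 4H, most of it Ly6a, which fell (log2 change -0.58, limma, adjusted p = 0.00109), while Pdgfra rose from 3.15 ± 0.29 to 5.08 ± 0.32 FPKM (log2 change 0.62, limma, adjusted p = 0.000753). Of the markers in this list below the filter, Fabp4 was at a mean of 0.0712 ± 0.06 FPKM in CON and 0.477 ± 0.14 FPKM in 4H (SD, n = 3), and Plin1 was at 0 in all 6. The part of these marker levels in the results above was not tested. In bulk samples fewer expressing cells and less RNA per cell cannot be told apart.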

How the data were processed

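The authors deposited 1 table of FPKM values with 1 column for each of 3 CON and 3 4H libraries, made from poly(A) RNA as strand-specific paired-end libraries. The submitters' processing notes name build mm10. No source used here gives the aligner, counting tool or annotation. Of 22375 identifiers, 22017 are in GENCODE M21 (GRCm38), which gave positions, overlaps and shared sequence.

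The table holds no read counts, so the count-based test of the study was not run. Instead, limma 3.58.1 in R 4.3.3 (lmFit, eBayes with a trend) was run on log2(FPKM + 0.5) for the 11593 genes whose mean over the libraries reached 0.5 FPKM, two-sided, with Benjamini-Hochberg adjustment. This scale understates changes of low genes. Genes with an adjusted p of at most 0.05 were called, and the study's threshold for differential expression asks in addition for an absolute log2 change of 1 or more. In 8 ratios of paired genes, log2 values were compared by a two-sided exact permutation test, where 3 against 3 cannot go below p = 0.1 (also 0.1 after adjustment over the 8). Simulated data for this comparison held 11593 genes, of which 200 were changed. There, 96% of genes changed by 1 and 62% of genes changed by 0.4 on the log2 scale were recovered, and 7.06% of calls were false. In the real libraries 46.7% of genes were called, so these rates need not hold for them.

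The 10 genes and the lists were chosen with earlier results of these data known. Beside the 10, the text names the partner genes in the ratios (paralogs, and Prdx1 for Srxn1), G6pd2, and the 3 called genes with the largest change in each list at a mean of at least 1 FPKM. Ikbkg, Gm16754, Gm6061 and Gm17494 were added after their overlaps were seen, and Mafg and Mafk after their values were seen. Cell type markers were named from lists. One listed gene was matched by its RefSeq synonym. FPKM holds no depth. In 15 pairs of libraries, log ratios of genes under 0.1 FPKM were searched near 0 for the window with the most genes. The fullest windows held 12 to 23 genes and gave depth differences of at most 1.58%. A difference outside the searched range could not have been found, so equal depth is not shown. Alternatives were pseudocounts of 0.1 and 1, no filter or one at 1 FPKM, a replicate block, no trend, array weights, TPM, median-of-ratios and quantile scaling, each library left out in turn and, added after the data were seen, removal of the trend on GC content and length. Tables were made in Python 3.11.15 (numpy 2.4.6, pandas 2.3.3), exact tests in SciPy 1.17.1 and plots in matplotlib 3.10.9.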

Additional observations from a re-analysis of the deposited data

How the results depend on the processing

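Across the 17 alternatives, the number of the 10 genes that fell was 6 to 8 and the number that rose was 0 throughout. The calls of Nfe2l2, Hmox1, Gclc, Gclm, Txnrd1 and Srxn1 were kept in all 17, and those of Keap1 and Gsr in 8 and 13. Nqo1 and G6pdx were not called in any of the 17. No gene of the 10 changed direction. The number of differentially expressed genes among them was 0, and 0 to 1 with 1 library left out. The number of all genes called was 4622 to 5565 against 5409. With the replicate number as a block, 4964 genes were called, 7 of the 10 fell and Keap1 lost its call (adjusted p = 0.0722). Same-numbered libraries had correlations of their deviations from the group means of 0.02, -0.09 and -0.13. The highest correlation, 0.18, was that of CON replicate 3 with 4H replicate 2. Deviations of 3 libraries sum to 0 in each gene, so these correlations are tied together and cannot decide whether the numbers pair the libraries. Without a filter, 15.7% of genes tested were lower and with TPM 18.7%, against 24.1%. All 8 ratios kept their direction under both pseudocounts and with each library left out. The depth of the libraries is unknown, so no counting error is given, and 3 libraries a group limit the precision.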
